A study of Mus musculus with 3 samples.

Results

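Basal interfollicular keratinocytes were selected from 3 single-cell libraries of mouse dorsal skin by the levels of 12 genes. A member had at least 10 UMIs (counted RNA molecules) of Krt14 and Krt5 together, and its Krt1 and Krt10 UMIs stayed below 20% of that sum. It had fewer than 2 of the follicle genes Krt17, Krt79, Sox9, Lhx2, Postn and Fst with a UMI, and at most 1 UMI of the immune genes Ptprc and Tyrobp together. Of 16604 cells kept, 983 met these limits. WT_Ctrl contributed 502 of its 5309 cells, WT_UV 116 of 5225, and RP_UV the remaining 365 of 6070. The levels of these 12 genes chose the cells and are given below only as a description.

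All mice were 8-week-old C57Bl/6 males in telogen, the resting phase of the hair cycle. WT_Ctrl was wild-type skin without UVB, and WT_UV was wild-type skin collected on day 5 of a course of 3 UVB exposures given every other day. RP_UV received the same UVB course and carried Rosa26-rtTA with Tre-Ptgs2, a doxycycline-driven transgene for rat Ptgs2 under a promoter active in all tissues. Whether the wild-type mice of these libraries received doxycycline is not given in the sources used here. All 3 suspensions were enriched for CD45+ immune cells with magnetic beads, so keratinocytes are cells that passed through it unselected, and their shares are not tissue shares. Each group was 1 library of 1 mouse. No test, standard error or p-value could therefore be computed, no difference had a replicate check, and every interval below is a 95% interval that covers counting error only. Per the labels, WT_UV was sequenced on a flow cell of its own and the other libraries shared one, so that sequencing run and UVB or genotype cannot be told apart in comparisons with WT_UV. The 3 comparisons share libraries and are not independent of each other.

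Basal keratinocytes form the deepest layer of the epidermis between hair follicles. They are held to the basement membrane by hemidesmosomes, built from proteins such as collagen XVII (Col17a1), integrin alpha 6 (Itga6) and dystonin (Dst), and they contain the dividing cells that renew the tissue. When a cell leaves this layer it replaces keratins 5 and 14 with keratins 1 and 10. Wounded or irradiated epidermis induces the stress keratins 6 and 16, and basal cells also make chemokines, prostaglandins and growth factors that act on immune cells and melanocytes.

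The members made up 9.46% of the kept cells of WT_Ctrl (Wilson interval 8.7 to 10.3), 2.22% of WT_UV (1.85 to 2.66) and 6.01% of RP_UV (5.44 to 6.64). The median member of WT_Ctrl had 6042 UMIs and 1958 genes. In WT_UV the medians were 14385 and 3181, and in RP_UV they were 5479 and 1773. Their UMIs summed to 3052139, 1700766 and 2481643 in the same order, so that a floor of 3 counts corresponds to 0.983, 1.76 and 1.21 CPM. CPM is the number of UMIs of a gene per 1000000 UMIs of all genes, summed over the members of a library. No member barcode occurred in more than 1 library.

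Each limit passed through some cells. In WT_Ctrl, WT_UV and RP_UV, 20, 2 and 18 members had 10 to 14 UMIs of Krt14 and Krt5, while 10, 7 and 34 otherwise eligible cells had 5 to 9. At the immune limit, 36, 15 and 55 members had 1 UMI of Ptprc or Tyrobp, and 5, 5 and 8 cells were left out with 2. The follicle limit passed through more cells, with 136, 37 and 218 members carrying 1 follicle gene and 87, 36 and 176 cells left out with 2. Krt17 is also a stress keratin, and of the cells placed in the follicle class of RP_UV, 328 of 397 had a Krt17 UMI and 115 had it together with 3 or more UMIs of Krt6a, Krt6b and Krt16. In WT_Ctrl the last number was 4 of 186 and in WT_UV 18 of 124. The rule therefore leaves stress-keratin cells out of the members to an extent that differs between libraries.

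The label held for most members of both wild-type libraries but only in part for RP_UV. Krt15 is a keratin of undifferentiated basal cells and of the follicle bulge that the rule did not use. With each cell thinned to 2000 UMIs, 98.9% of WT_Ctrl members (97.5 to 99.5) had a Krt15 UMI. The share was 91.7% (84.4 to 95.7) in WT_UV and 48.6% (43 to 54.3) in RP_UV. In immune cells, which should lack Krt15, it was 4.92%, 1.5% and 1.35%. The thinning used 472, 96 and 292 members and left out 30, 20 and 73 shallower ones. Without thinning the shares were 99.2%, 91.4% and 53.4%.

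The RP_UV members fell into 3 kinds of cells, separated here by limits that were chosen after the data had been seen. Sebaceous-gene cells held at least 0.1% of their UMIs, and at least 3 UMIs, in Scd1 and Mgst1, a lipid desaturase and a microsomal glutathione transferase that are abundant in sebaceous gland. They numbered 8 of the 502 WT_Ctrl members, 0 of the 116 of WT_UV and 57 of the 365 of RP_UV, or 15.6% (12.3 to 19.7). Stress-keratin cells met the same limits for Krt6a, Krt6b and Krt16, and numbered 1, 7 and 99, the last being 27.1% (22.8 to 31.9). The remaining stress-keratin-low cells numbered 493, 109 and 209, which is 98.2%, 94% and 57.3% of the members. These kinds are ranges of a continuous level, and 46 RP_UV cells lay within 2 times of the stress-keratin limit and 43 within 2 times of the sebaceous one.

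Sebaceous-gene cells had low levels of Krt15 and of the basal anchoring genes. In those of RP_UV, Col17a1 was at 15.3 CPM (6.6 to 30.1), Krt15 at 86 CPM (62.8 to 115) and Itga6 at 53.5 CPM (35.6 to 77.4). In the stress-keratin-low cells of the same library these 3 genes were at 783, 2827 and 348 CPM. Krt79, a keratin of the sebaceous duct and upper follicle that the rule used, was at 2652 CPM in the sebaceous-gene cells and at 218 CPM in the stress-keratin-low ones. The sebaceous-gene cells met the rule and are counted among the members, but their genes go against the label. Stress-keratin cells of RP_UV retained Col17a1 at 506 CPM (457 to 558) and Itga6 at 314 CPM (276 to 356), with Krt15 at 146 CPM (121 to 175). The 7 of WT_UV held 10.3% of the UMIs of its members and include its deepest cell, described below. They had Col17a1 at 143 CPM, Itga6 at 57.2 CPM and Krt15 at 246 CPM. Stress-keratin-low cells of WT_UV had 887, 358 and 5431 CPM of these, so the summed levels of those 7 cells also go against the label. Each result is given for all members first, and for the stress-keratin-low cells where the value differs.

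**Figure D1:**
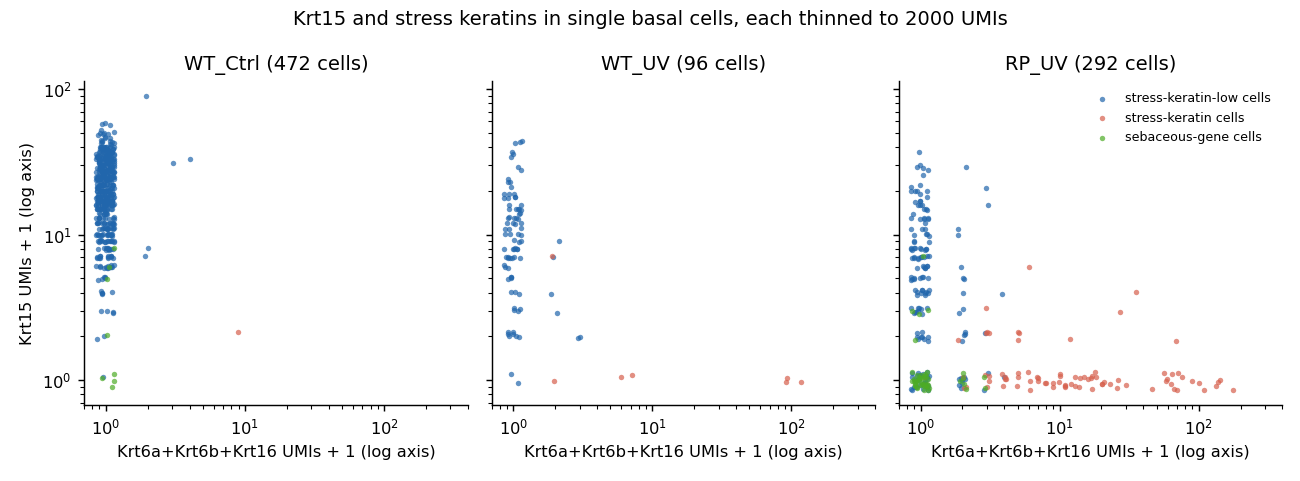
Krt15 UMIs (vertical, log axis, 1 added) against the summed UMIs of Krt6a, Krt6b and Krt16 (horizontal, log axis, 1 added) in single members thinned to 2000 UMIs, 1 panel per library, with small random shifts so that points do not cover each other. WT_Ctrl cells form 1 column of high Krt15 without stress keratins, WT_UV keeps that column with 96 cells in all, and RP_UV adds a row of stress-keratin cells and a cluster of sebaceous-gene cells with little or no Krt15.

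Genes were counted as higher or lower where the fold between 2 libraries was at least 2 and its exact conditional interval left out 1, among genes at 10 CPM or more in the higher library. In WT_UV over WT_Ctrl, 7728 genes were tested by this limit, of which 180 (2.33%) were higher and 430 (5.56%) lower. The median log2 fold of all genes was -0.22 there, so list medians should be read against that shift. Scaling the libraries by the median ratio of their genes turned these counts into 293 higher and 254 lower. Between RP_UV and WT_UV, 833 of 7724 genes (10.8%) were higher and 627 (8.12%) lower in RP_UV, with a median of 0.11. Between RP_UV and WT_Ctrl, 735 of 8060 (9.12%) were higher and 1165 (14.5%) lower, with a median of -0.10. Among stress-keratin-low cells the shares were smaller. There, 1.64% of genes were higher and 4.05% lower in WT_UV over WT_Ctrl, 6.23% and 5.54% in RP_UV over WT_UV, and 6% and 10.8% in RP_UV over WT_Ctrl. Counts of list genes below should be read against these shares of all genes.

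Krt15 was lower in both irradiated libraries and lowest in RP_UV, while most other regulators of the basal state were within the limit in WT_UV and several were lower in RP_UV. Krt15 (chromosome 11, 100131759 to 100135949, mm10) was at 9904 CPM (9792 to 10016) in WT_Ctrl, 4898 CPM (4793 to 5004) in WT_UV and 1393 CPM (1347 to 1440) in RP_UV. This was 2.02-fold lower in WT_UV than in WT_Ctrl (1.97 to 2.07) and 3.52-fold lower in RP_UV than in WT_UV (3.38 to 3.66). Much of the second step went with the other kinds of cells, since in stress-keratin-low cells alone the levels were 10235, 5431 and 2827 CPM, with factors of 1.88 and 1.92. Most WT_Ctrl cells still carried the transcript at high level, with a median of 19 Krt15 UMIs per thinned cell against 7.5 in WT_UV and 0 in RP_UV. For comparison, the 2 keratins that chose the cells went the other way, with medians of 31, 41 and 54.5 UMIs of Krt14 and Krt5 together.

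Trp63, which encodes the p63 factor that maintains stratified epithelium, was at 393 CPM in WT_Ctrl, 203 CPM in WT_UV and 183 CPM in RP_UV. It was 1.93-fold lower in WT_UV than in WT_Ctrl (1.71 to 2.18), and the interval of the fold between the irradiated libraries included 1. Gata3, a transcription factor of epidermal and follicle differentiation, was at 385, 270 and 118 CPM, and RP_UV was 2.29-fold below WT_UV (1.98 to 2.67). In the list of 16 basal state regulators, 1 gene was higher (Ovol1) and 1 lower (Krt15) in WT_UV over WT_Ctrl, with a median log2 fold of -0.34. RP_UV over WT_UV had no gene higher and 6 lower (Krt15, Jag2, Sox6, Gata3, Igfbp3 and Thbs1), with a median of -0.80. RP_UV over WT_Ctrl had 10 lower, with a median of -1.16. Among stress-keratin-low cells the numbers lower were 0, 1 and 7.

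The anchoring genes differed less. Col17a1 (chromosome 19, 47646341 to 47692042) was at 1067 CPM (1031 to 1104) in WT_Ctrl, 810 CPM (768 to 854) in WT_UV and 533 CPM (504 to 562) in RP_UV. Itga6 was at 401, 327 and 275 CPM, and Dst at 1068, 631 and 295 CPM. All 3 stood in the same order. In stress-keratin-low cells the step from WT_UV to RP_UV was small for Col17a1, at 887 against 783 CPM, and for Itga6, at 358 against 348 CPM, the interval of the fold included 1. Dst kept it, at 697 against 470 CPM, a factor of 1.48 (1.34 to 1.65). Of the basal adhesion list, 0 of 14 measured genes were higher and 2 lower (Col4a1 and Npnt) in WT_UV over WT_Ctrl. For RP_UV over WT_UV, 1 of 12 was lower (Dst), and in RP_UV over WT_Ctrl 5 of 14 were lower (Col17a1, Dst, Lamb3, Col7a1 and Npnt). Of all genes, 5.56%, 8.12% and 14.5% were lower in the 3 comparisons. The list medians were -0.27, -0.46 and -0.78. In stress-keratin-low cells 1 of 14 (Npnt), 0 of 13 and 1 of 14 (Dst) were lower, with medians of -0.20, -0.18 and -0.50.

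**Figure D2:**
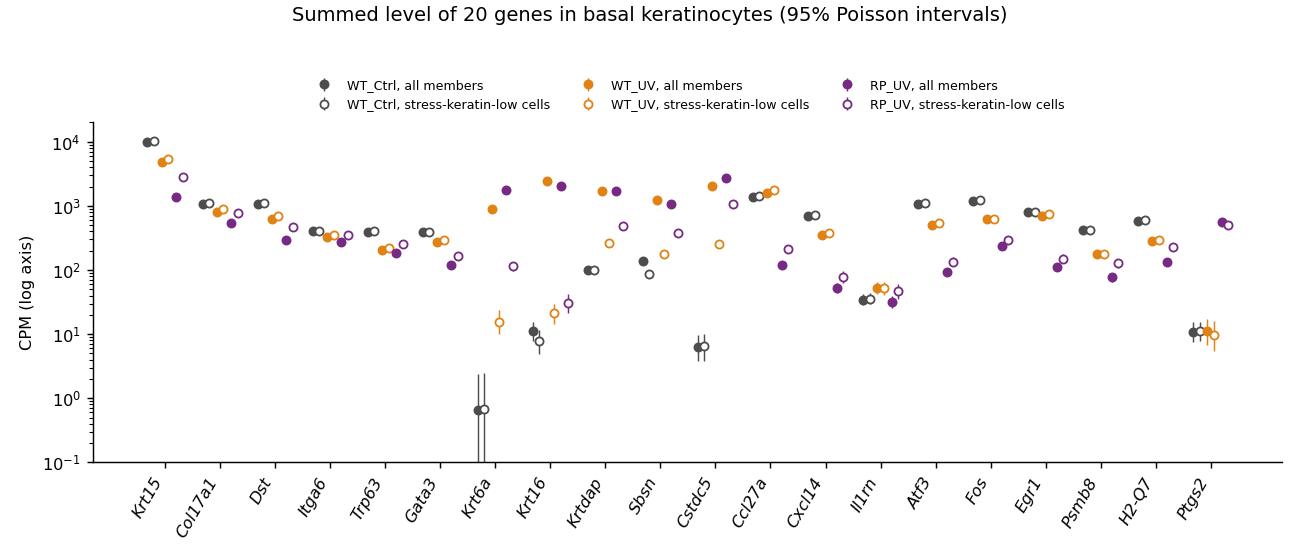
Summed level of 20 genes in CPM (log axis) in each library, for all members (filled) and stress-keratin-low cells (open), with 95% Poisson intervals. Krt15, Cxcl14, Atf3 and Psmb8 descend from WT_Ctrl through WT_UV to RP_UV in both kinds of points, Ccl27a and Egr1 are low in RP_UV, and Ptgs2 is high in RP_UV, while Krt16 is high in both irradiated libraries in filled points only.

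Stress keratins were nearly absent from WT_Ctrl members and present in both irradiated libraries. Krt6a (chromosome 15, 101689928 to 101694305), a keratin of activated epidermis and of the inner follicle, had 2 UMIs in WT_Ctrl (0.655 CPM), against 881 CPM (837 to 927) in WT_UV and 1767 CPM (1715 to 1820) in RP_UV. Its partner Krt16 (chromosome 11, 100246091 to 100248902) was at 11.1 CPM, 2405 CPM and 2035 CPM. Krt6b was at 0 UMIs in WT_Ctrl and at 753 and 767 CPM in the irradiated libraries. Relative to a floor of 3 counts in WT_Ctrl, this is at least 766-fold and 781-fold higher. Krt6a and Krt6b are near-identical copies, and the division of reads between them is uncertain.

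In WT_UV these values came mostly from 1 cell. A member with 96360 UMIs held 73.1% of the Krt6a UMIs, 73.4% of the Krt6b UMIs and 75% of the Krt16 UMIs of all WT_UV members. Without the deepest cell of each library, WT_UV had 251 CPM of Krt6a and 638 CPM of Krt16, and RP_UV was 6.85-fold above WT_UV for Krt6a (6.18 to 7.61) and 2.99-fold for Krt16 (2.79 to 3.2). With it the folds were 2 and 0.846. RP_UV spread these transcripts over many cells, with 144 members carrying a Krt6a UMI against 15 in WT_UV and 2 in WT_Ctrl. In thinned cells, 33.9% of RP_UV members (28.7 to 39.5) had one, against 8.33% (4.28 to 15.6) in WT_UV and 0.212% (0.0374 to 1.19) in WT_Ctrl. Immune cells stood at 2.12%, 0.586% and 0.0428%.

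The stress keratin and alarmin list gathers such keratins with calcium-binding alarmins, small proline-rich cornified envelope proteins and gap junction proteins. All 13 measured genes were higher in WT_UV than in WT_Ctrl, with a median log2 fold of 5.78, or 5.49 with genes at 0 UMIs placed at their bound. For RP_UV over WT_Ctrl 11 of 12 were higher, with a median of 6.27, or 5.38 at the bound. Between RP_UV and WT_UV 3 were higher (Krt6a, S100a8 and Gjb2) and 5 lower (S100a6, Sprr1a, Sprr1b, Sprr2d and Gjb6), with a median of -0.24 that became 2.75 without the deepest cell. S100a8 had 50.4 CPM in RP_UV members and 1115 CPM in RP_UV immune cells, and how much of the former was free RNA was not tested. Among stress-keratin-low cells only 4 to 6 genes of the list were measured, and 4, 4 and 5 of them were higher in the 3 comparisons. Krt6a there was at 0.678, 15.7 and 114 CPM. These keratins set the limit of that group, so its own Krt6a and Krt16 levels are bounded from above by the choice of cells.

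The cystatin genes Stfa1 and Cstdc5, inhibitors of cysteine proteases from a cluster of close copies whose reads may be split uncertainly, were also higher in both irradiated libraries. Cstdc5 was at 6.23 CPM in WT_Ctrl (3.75 to 9.72), 2052 CPM in WT_UV and 2696 CPM in RP_UV. The deepest WT_UV cell held 63.8% of its WT_UV UMIs. In stress-keratin-low cells it was at 6.44 CPM (3.88 to 10.1), 255 CPM (230 to 282) and 1055 CPM (997 to 1116). This was a 39.6-fold difference between WT_UV and WT_Ctrl (25 to 66.4) and a further 4.14-fold between RP_UV and WT_UV (3.69 to 4.65). Stfa1 had a UMI in 35.3% of thinned RP_UV members, 14.6% of WT_UV members and 1.06% of WT_Ctrl members.

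Early differentiation genes were higher in the irradiated members although cells with much Krt1 and Krt10 had been left out by the rule. Krtdap, a secreted peptide of suprabasal cells, was at 100 CPM (89.3 to 112) in WT_Ctrl, 1722 CPM in WT_UV and 1712 CPM in RP_UV. The deepest WT_UV cell held 67.9% of its Krtdap UMIs, and without the deepest cells the levels were 100, 585 and 1677 CPM. In stress-keratin-low cells Krtdap was at 99, 261 and 488 CPM, a 2.63-fold step (2.26 to 3.07) and then a 1.87-fold one (1.64 to 2.13). Sbsn, or suprabasin, followed with 86.8, 179 and 377 CPM. Suprabasal cells had 8287, 16215 and 10125 CPM of Krtdap and immune cells 131, 100 and 94.7 CPM. In WT_Ctrl the immune value was above the 100 CPM of the members, and how much of the member values was free RNA was not tested. Of 12 early differentiation genes, 5 were higher in WT_UV over WT_Ctrl, 1 in RP_UV over WT_UV and 6 in RP_UV over WT_Ctrl, and none was lower. In stress-keratin-low cells 2 of 11 (Krtdap and Sbsn), 2 and 5 were higher. Late differentiation and barrier genes were higher for 5 of 8 and lower for 1 of 8 (Elovl4) in WT_UV over WT_Ctrl. The deepest WT_UV cell held 97.1% of the Cnfn, 92.3% of the Asprv1 and 78.3% of the Cdsn UMIs. In stress-keratin-low cells 2 of 4 measured were higher (Asprv1 and Elovl4) and 1 lower (Hal), so Elovl4 went the opposite way there. The list summed to 63.1, 69.5 and 98.6 CPM in these cells. For RP_UV over WT_UV 2 of 9 were higher and 5 lower with a median of -1.13, which was 1.39 without the deepest cell.

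The chemokines that basal keratinocytes make at rest were much lower in RP_UV. Ccl27a (chromosome 4, 41769467 to 41774225), a skin chemokine that attracts T cells and that has near-identical copies in the mouse genome, was at 1361 CPM (1320 to 1403) in WT_Ctrl and 1589 CPM (1530 to 1650) in WT_UV. In RP_UV it was at 120 CPM (107 to 135), or 13.2-fold below WT_UV (11.7 to 15) and 11.3-fold below WT_Ctrl (10.1 to 12.8). Cxcl14 (chromosome 13, 56288643 to 56296811), a chemokine that epithelia express without stimulation, stepped down through all 3 libraries with 687, 358 and 52.8 CPM. RP_UV was 6.78-fold below WT_UV (5.61 to 8.26).

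Each of these 2 genes kept its own order in the stress-keratin-low cells. Ccl27a was at 1403, 1739 and 215 CPM there, and Cxcl14 at 711, 379 and 77.2 CPM. By cells, 83.5% of thinned WT_Ctrl members, 76% of WT_UV members and 22.9% of RP_UV members had a Ccl27a UMI, against at most 1.88% of immune cells in any library. Ccl27a was lowest in RP_UV in suprabasal cells too, with 668, 633 and 96.3 CPM, and in the follicle class, with 1871, 3133 and 96.1 CPM. In the list of chemokines and cytokines, Il18 was higher and Cxcl10 and Ccl2 lower in WT_UV over WT_Ctrl, of 10 genes measured. A single WT_Ctrl cell held 81.8% of the 77 Ccl2 UMIs, and another held 71.3% of the 157 Cxcl10 UMIs, so these lower values rest on few WT_Ctrl cells. For Il18, 1 WT_UV cell held 62.5% of 24 UMIs. For RP_UV over WT_UV, Cxcl2, Ccl2 and Il24 were higher and Cxcl14, Ccl27a and Il33 lower, of 12. Of all genes, 10.8% were higher and 8.12% lower in that comparison. The neutrophil attractant Cxcl1 had 9, 6 and 14 UMIs in the members of the 3 libraries, too few to compare. Il1rn, the interleukin 1 receptor antagonist, was at 34.4, 52.3 and 31.8 CPM, and Il1a had 0, 3 and 0 UMIs.

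**Figure D3:**
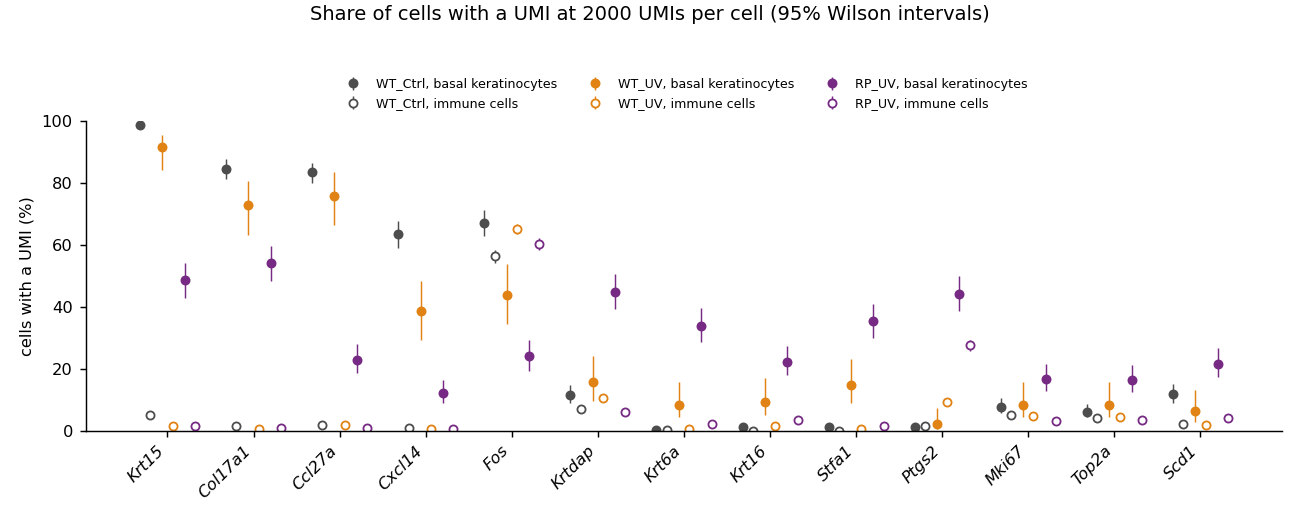
Share of cells with at least 1 UMI of each gene (percent) after thinning every cell to 2000 UMIs, in the members (filled) and in immune cells (open) of each library, with 95% Wilson intervals. Krt15, Col17a1, Ccl27a and Cxcl14 lie far above immune cells and lowest in RP_UV, Krt6a, Krt16, Stfa1 and Ptgs2 lie highest in RP_UV, and Fos is frequent in immune cells of all libraries.

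Ptgs2, which encodes the cyclooxygenase Cox-2, was at the same low level in both wild-type libraries and high in RP_UV. It had 33 UMIs in WT_Ctrl members (10.8 CPM, 7.44 to 15.2), 19 in WT_UV (11.2 CPM, 6.73 to 17.4) and 1399 in RP_UV (564 CPM, 535 to 594). The gene lies on chromosome 1 (150100031 to 150108234). RP_UV was 50.5-fold above WT_UV (32.2 to 84.1), and WT_UV over WT_Ctrl was 1.03-fold (0.555 to 1.87). The transgene is of rat sequence and was counted with the mouse gene where its reads aligned, so that transgene and endogenous transcript cannot be told apart.

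All 3 kinds of RP_UV cells carried Ptgs2, with 496 CPM in stress-keratin-low, 825 CPM in stress-keratin and 319 CPM in sebaceous-gene cells. After thinning, 44.2% of RP_UV members (38.6 to 49.9) had a Ptgs2 UMI, beside 50.9% of suprabasal, 36.3% of follicle-class and 27.5% of immune cells. In WT_UV, where 2.08% of members (0.573 to 7.28) had one, the share was 9.19% in immune cells. The immune cells of WT_UV therefore had Ptgs2 more often than the members, and in WT_UV a share of 2.08% cannot be separated from free RNA. By summed level, immune cells had 132.6 CPM of Ptgs2 in WT_UV and 565.2 CPM in RP_UV. How much of the RP_UV member level was free RNA was not tested.

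No other prostaglandin gene differed as much as Ptgs2. Ptges, the terminal synthase of prostaglandin E2, was at 43.9, 48.2 and 48.8 CPM, and all 3 intervals of its folds included 1. Slco2a1, which takes prostaglandins into cells for breakdown, was at 151 CPM (137 to 165), 119 CPM (103 to 136) and 46.7 CPM (38.6 to 56.1). The receptor gene Ptger4 was at 25.2, 19.4 and 7.66 CPM. Of 11 genes, none was past the limit in WT_UV over WT_Ctrl. In RP_UV over WT_UV, Ptgs2 and the carbonyl reductase gene Cbr1 were higher and Slco2a1 and Ptger4 lower, beside 10.8% and 8.12% of all genes. Over WT_Ctrl, Ptgs1, Ptgs2 and Cbr1 were higher in RP_UV and the same 2 genes lower. In stress-keratin-low cells only Ptgs2 was past the limit in RP_UV over WT_UV, with Slco2a1 at 132 CPM in WT_UV against 84.9 CPM in RP_UV. In RP_UV over WT_Ctrl, Ptgs2 and Ptges2 were higher in these cells and Ptger4 lower.

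Immediate early genes, transcription factors that cells switch on within minutes of a stimulus and also during tissue dissociation, were for the most part lower in RP_UV than in both wild-type libraries, while only some differed between WT_Ctrl and WT_UV. Fos was at 1181 CPM (1143 to 1221), 623 CPM (586 to 661) and 235 CPM (216 to 254). Atf3 was at 1082, 499 and 92.7 CPM, and RP_UV was 5.38-fold below WT_UV (4.64 to 6.25). Egr1 differed little between the wild-type libraries, at 789 and 695 CPM, and was at 112 CPM in RP_UV.

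Of 19 immediate early genes, 1 was higher (Fosl1) and 4 lower (Fosb, Atf3, Klf2 and Klf6) in WT_UV over WT_Ctrl, with a median of -0.34. In RP_UV over WT_UV 1 was higher (Klf2) and 12 lower, with a median of -1.36, and in RP_UV over WT_Ctrl 16 were lower and none higher. Stress-keratin-low cells had 8 and 12 lower in the last 2 comparisons, with Fos at 1217, 622 and 299 CPM. The whole list summed to 11164, 7607 and 2817 CPM in the members. It was also lower in irradiated suprabasal cells, with 9531, 5894 and 5173 CPM, and in the follicle class, with 7622, 4208 and 3165 CPM. Immune cells of the same suspensions had 9018, 10282 and 10782 CPM of the list and 1425, 1434 and 1298 CPM of Fos. Their Egr1 was at 139.3 CPM in WT_UV and 469.3 CPM in RP_UV.

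Interferon-responsive genes and antigen presentation genes were mostly lower in RP_UV than in WT_Ctrl, and part of each list was lower in WT_UV too. Iigp1, an interferon-induced GTPase, was at 80.6 CPM (70.8 to 91.3) in WT_Ctrl, 7.06 CPM (3.65 to 12.3) in WT_UV and 1.21 CPM (3 UMIs) in RP_UV. Isg15, a ubiquitin-like protein induced by interferon, was at 43.6, 5.88 and 7.25 CPM. Of 12 interferon response genes, 7 were lower in WT_UV over WT_Ctrl (among them Isg15, Ifi27l2a, Irf9, Bst2 and Usp18), and none was higher, with a median of -1.25. RP_UV over WT_Ctrl had 11 lower, and in RP_UV over WT_UV 3 of 8 measured were lower.

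Some antigen presentation genes stepped down from WT_Ctrl through WT_UV to RP_UV. Psmb8, a subunit of the immunoproteasome that cuts peptides for presentation, was at 417 CPM (394 to 440), 178 CPM (158 to 199) and 76.6 CPM (66.1 to 88.3). The MHC class I gene H2-Q7, which has close paralogs that could share its reads, was at 583, 283 and 132 CPM. Of 12 such genes 5 were lower in WT_UV over WT_Ctrl, 6 in RP_UV over WT_UV and 10 in RP_UV over WT_Ctrl, none being higher in any of them. The medians were -0.81, -0.94 and -1.73. In stress-keratin-low cells the WT_UV step was alike, with a median of -0.82 and 4 lower, while RP_UV over WT_UV had 1 lower (Nlrc5, the activator of MHC class I genes) and a median of -0.42.

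Dividing cells were more frequent among RP_UV members. Using the share of thinned cells with 3 or more of 10 division genes, 7.42% of WT_Ctrl (5.38 to 10.1), 9.38% of WT_UV (5.01 to 16.9) and 20.9% of RP_UV members (16.6 to 25.9) were in this state. Without thinning the shares were 8.37%, 13.8% and 26.8%. Among stress-keratin-low cells they were 7.56%, 7.87% and 25.3%, and among suprabasal cells 0.546%, 1.29% and 1.2%. The follicle class stood at 3.31%, 10.9% and 22.3% (18.3 to 26.9), so that its RP_UV share was close to that of the members. The intervals of both wild-type libraries overlapped widely in the members. Immune cells, some of which divide, stood at 2.57%, 2.14% and 2.24%.

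The transcripts followed. Top2a, the topoisomerase of dividing cells, was at 119 CPM (107 to 132), 112 CPM (95.9 to 130) and 259 CPM (231 to 290) in stress-keratin-low cells, or 2.31-fold higher in RP_UV than in WT_UV (1.91 to 2.81). Mki67, a protein of the chromosome surface in dividing cells, was at 111, 69.5 and 178 CPM. Rrm2, a subunit of ribonucleotide reductase needed in S phase, was at 12.9 CPM (9.12 to 17.7), 32.1 CPM (23.8 to 42.5) and 78.9 CPM (63.6 to 96.8). Of 25 cell cycle genes in these cells, 5 were higher in WT_UV over WT_Ctrl, and all 5 act in DNA replication (Mcm2, Mcm3, Mcm5, Mcm6 and Rrm2). In RP_UV over WT_UV 13 were higher, most of them mitotic (Mki67, Top2a, Cdk1, Ccnb1, Ccnb2, Ccna2, Birc5, Cdc20, Cenpf and Ube2c among them), and none was lower in either. Over all members the numbers higher were 3, 4 and 5 in the 3 comparisons, beside 2.33%, 10.8% and 9.12% of all genes. The sebaceous-gene and stress-keratin cells lowered the summed levels of RP_UV, with Top2a at 116, 109 and 161 CPM.

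The p53 and DNA repair lists had few genes past the limit between WT_UV and WT_Ctrl on day 5. Of all genes 2.33% were higher and 5.56% lower there, so these counts do not set the lists apart. Cdkn1a, the cell cycle inhibitor p21, was at 255 CPM (237 to 273) in WT_Ctrl, 394 CPM (365 to 425) in WT_UV and 224 CPM (205 to 243) in RP_UV, which is 1.55-fold higher in WT_UV than in WT_Ctrl (1.39 to 1.72). Mdm2, the regulator of p53, was at 25.9, 32.3 and 18.1 CPM, and the interval of WT_UV over WT_Ctrl included 1. Ccng1, or cyclin G1, was at 22.9, 41.2 and 48 CPM. Of 17 p53 targets, 1 was higher (Zmat3) and 1 lower (Btg2) in WT_UV over WT_Ctrl, and none was past the limit in RP_UV over WT_UV. In stress-keratin-low cells Phlda3 was higher and Cdkn1a lower in RP_UV over WT_UV. In RP_UV over WT_Ctrl, 3 were higher (Ccng1, Zmat3 and Aen) and 3 lower (Sesn1, Btg2 and Bbc3), beside 9.12% and 14.5% of all genes. None of 14 excision repair genes was past the limit in WT_UV over WT_Ctrl. Xpc, a sensor of UV lesions, was at 39 CPM (32.3 to 46.7), 24.7 CPM (17.8 to 33.4) and 12.1 CPM (8.16 to 17.3). It was among 2 of 13 lower in RP_UV over WT_UV, where 8.12% of all genes were lower. Over WT_Ctrl, 3 of 13 were lower in RP_UV (Xpc, Ddb2 and Ercc4), beside 14.5% of all genes. In stress-keratin-low cells 0 of 13 were past the limit in RP_UV over WT_UV, and 1 of 13 (Xpc) was lower over WT_Ctrl.

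Factors that act on melanocytes were mostly of low level. Kitl, the ligand of the Kit receptor on melanocytes, had 32, 44 and 57 UMIs, or 10.5 CPM (7.17 to 14.8), 25.9 CPM (18.8 to 34.7) and 23 CPM (17.4 to 29.8). It was 2.47-fold higher in WT_UV than in WT_Ctrl (1.53 to 4.02) and was the only one of 12 measured genes above the limit there. Edn1, the melanocyte growth factor endothelin 1, had 10, 14 and 4 UMIs, and no Pomc UMI was seen in any library. Bmp4 was at 70.8, 41.2 and 15.3 CPM, and it was lower in RP_UV over WT_UV together with Wnt3, Wnt6 and F2rl1. In stress-keratin-low cells none of these 4 was past the limit, and Kitl was at 10.9, 28.2 and 34.3 CPM.

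Among ligands of the EGF receptor, Hbegf was at 47.5, 102 and 79 CPM, and WT_UV was 2.14-fold above WT_Ctrl (1.71 to 2.69), or 1.82-fold (1.43 to 2.31) without the deepest cells. In stress-keratin-low cells 0 of 7 measured genes of the EGF family list were past the limit in WT_UV over WT_Ctrl. In RP_UV over WT_UV, Epgn was higher there and Hbegf lower, of 7 measured. Areg, or amphiregulin, had 0, 5 and 146 UMIs in the members. RP_UV was at 58.8 CPM (49.7 to 69.2), which is 20-fold above WT_UV (8.38 to 62.6) and at least 59.9-fold above the WT_Ctrl floor. The RP_UV UMIs came from 33 cells, and 136 of them lay in stress-keratin cells, at 172 CPM, against 8.58 CPM in stress-keratin-low cells. Immune cells had 14, 23.5 and 16.3 CPM.

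Metabolic genes were divided between the kinds of cells. Of 14 glycolysis and hypoxia genes, 2 were higher in WT_UV over WT_Ctrl (Hk2 and Gapdh) and none lower. In RP_UV 3 were lower than in WT_UV (Bnip3, Vegfa and Ndrg1) and none higher, and over WT_Ctrl 5 were higher (Hk2, Gapdh, Pgk1, Pkm and Ldha) and 1 lower (Bnip3). Of all genes, 2.33% were higher and 5.56% lower in WT_UV over WT_Ctrl. The shares were 10.8% and 8.12% in RP_UV over WT_UV, and 9.12% and 14.5% in RP_UV over WT_Ctrl. Stress-keratin-low cells had 1 of the 14 genes higher in WT_UV over WT_Ctrl and 6 lower in RP_UV over WT_UV. In RP_UV over WT_Ctrl they had 1 higher and 3 lower. Pkm, pyruvate kinase, was at 275, 548 and 740 CPM, and it kept this order in stress-keratin-low cells with 283, 506 and 671 CPM. Hk2, a hexokinase, was at 12.1, 59.4 and 35.5 CPM. In stress-keratin-low cells it was at 11.5, 52.4 and 15.4 CPM, and the interval of RP_UV over WT_Ctrl included 1.

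Sterol synthesis genes were higher in RP_UV for 11 of 15 over WT_UV and for 9 of 15 over WT_Ctrl, with a median of 1.37 in both. Without sebaceous-gene cells these medians were 0.24 and 0.56, and in stress-keratin-low cells 2 of 13 were higher and 2 lower over WT_UV. Genes that led RP_UV over WT_UV, such as Elovl6 at 1040 CPM, Cers4 at 615 CPM and Elovl3 at 305 CPM, encode enzymes of fatty acid elongation and ceramide synthesis. In the stress-keratin-low cells of RP_UV these 3 genes were at only 27.4, 18 and 4.29 CPM. For Elovl6 the interval of RP_UV over WT_UV there included 1. The summed level of 14 follicle and sebaceous markers was 654, 205 and 2468 CPM in the members and 230, 212 and 301 CPM in stress-keratin-low cells. This list holds Scd1 and Mgst1, whose levels define the sebaceous-gene cells, so the lower sum in stress-keratin-low cells follows in large part from the choice of cells.

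Among the remaining lists, metallothionein Mt1 was at 911, 1282 and 892 CPM and Mt2 at 489, 791 and 338 CPM, both highest in WT_UV. Gsta4, a glutathione transferase, was the only one of 8 measured genes of that list above the limit in WT_UV over WT_Ctrl, and the deepest cell held 72.8% of its WT_UV UMIs. Hmox1, or heme oxygenase 1, had 11, 13 and 34 UMIs. Of 11 circadian clock genes, 6 were lower in WT_UV over WT_Ctrl, among them Dbp at 62.9 against 31.2 CPM. Arntl, which encodes the clock activator Bmal1, was at 17.4, 24.7 and 4.84 CPM. In stress-keratin-low cells 4 of 11 clock genes were lower in WT_UV over WT_Ctrl (Nr1d2, Per1, Per3 and Bhlhe40), and Dbp was not among them. The hours of collection are not given in the sources used here.

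Some genes were nearly lost from RP_UV members. Pyy, a peptide hormone, was at 94 CPM (83.5 to 106), 30.6 CPM (22.8 to 40.1) and 0 UMIs, or lower by at least 77.8-fold in RP_UV than in WT_Ctrl. In WT_UV, 1 cell held 69.2% of the 52 Pyy UMIs. Skint7, of a family of proteins that epidermal cells present to gamma delta T cells, was at 48.2 CPM, 19.4 CPM and 1 UMI. Rspo3, an enhancer of Wnt signals, was at 47.5, 18.8 and 1.21 CPM. In stress-keratin-low cells they stood in the same order, with 97.4, 24.9 and 0 CPM of Pyy and 49.2, 21 and 2.57 CPM of Rspo3.

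**Figure D4:**
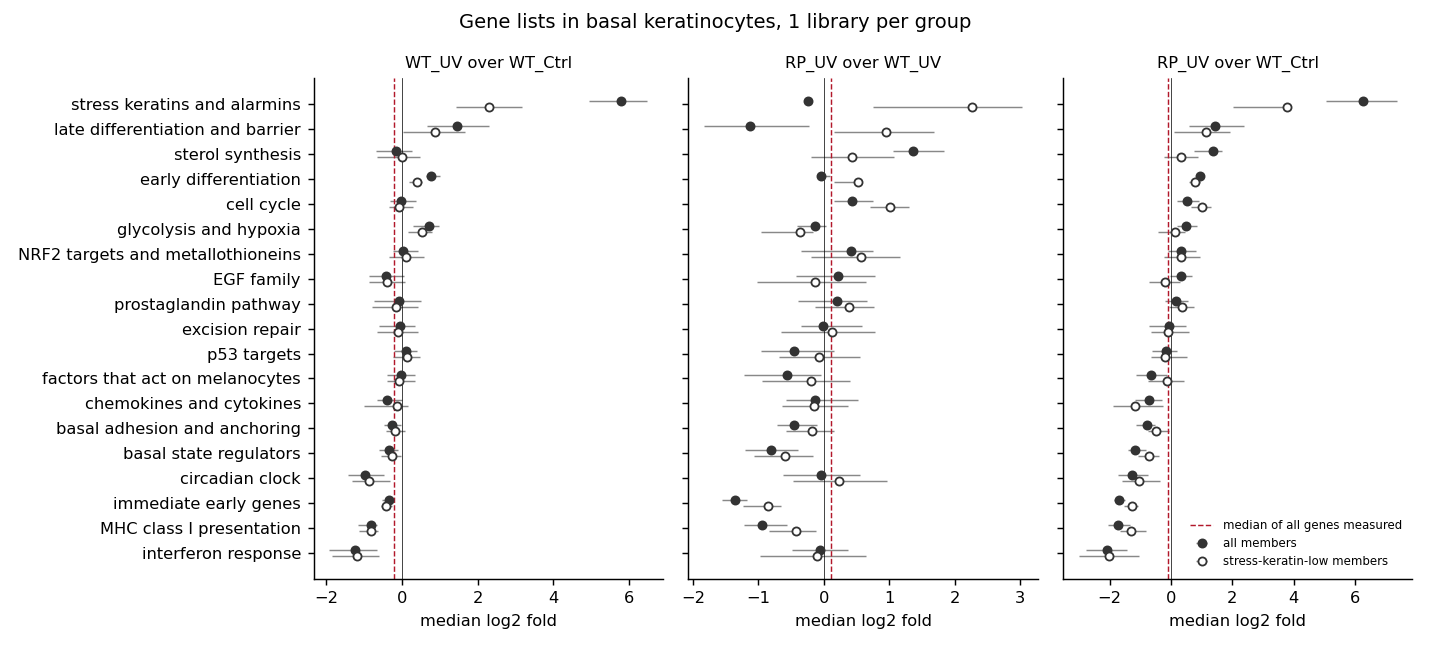
Median log2 fold of each gene list in the 3 comparisons, for all members (filled) and stress-keratin-low cells (open), with the medians of the interval bounds as horizontal lines and the median of all measured genes as a dashed line. Stress keratins lie at 5.78 in WT_UV over WT_Ctrl, interferon and MHC class I lists lie on the low side there, and the filled and open points of RP_UV over WT_UV lie on opposite sides of 0 for the stress keratin and late differentiation lists.

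Markers of other cell types were present at different levels. The summed level of 15 immune genes was 421, 296 and 387 CPM in the members against 74854, 47531 and 39443 CPM in immune cells, with Cd3e and Cd3g at 0 in RP_UV members. The sum covers opposite directions, since in RP_UV over WT_UV the myeloid genes Lyz2, C1qa, C1qb, C1qc and Fcer1g were higher and Cd74, H2-Aa, H2-Ab1, H2-Eb1 and Cd52 lower, of 12 measured. The limit on Ptprc and Tyrobp kept cells with more immune RNA out, so low immune sums follow in part from the selection. Of 9 fibroblast genes, 7 were at 0 in WT_UV, and the sums were 98.3, 47.6 and 56.4 CPM. The 8 neutrophil genes summed to 186, 103 and 25 CPM, of which the decoy receptor gene Il1r2 made 185, 102 and 18.1 CPM, and Retnlg had 0, 0 and 2 UMIs. Immune cells summed to 138, 233 and 1099 CPM for that list. The sums were 4.91, 3.53 and 2.82 CPM for melanocyte and Schwann genes. Muscle genes summed to 3.28, 4.7 and 6.04 CPM. Endothelial and mural genes summed to 3.93, 2.35 and 73.7 CPM, with 4 of 8 at 0 in WT_Ctrl, 5 of 8 in WT_UV and none in RP_UV, where immune cells were at 54.8 CPM. Their part in the results of RP_UV was not tested.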

How the data were processed

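Single-cell 3′ libraries (10x Genomics) were analysed from 3 groups with 1 library each. The deposited matrices hold raw counts of UMIs for each gene in each called cell, which the authors made with Cell Ranger 6.1.1 per the file headers and aligned to mm10 per the labels, without normalization. Cells were kept as in the methods of the study, with under 10% mitochondrial UMIs, more than 200 genes and fewer than 4000 genes (6000 in WT_UV). The higher limit in WT_UV retained deeper cells there. Doublets were not removed, since the methods name no caller, and an alternative left out the top 5% by Scrublet score (scanpy 1.11.5).

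Members and gene lists were chosen with earlier results of these data known. Raw counts of members were summed per library and divided by their total (CPM, floor of 3 counts). CPM have exact Poisson intervals, folds have exact conditional intervals and shares have Wilson intervals at 95%, which cover counting error only. List medians used log2 folds with a pseudocount of 1 CPM over genes at 10 CPM or more. Shares of cells were taken after thinning to 2000 UMIs. Immune cells had at least 5 UMIs of Ptprc and Tyrobp. Suprabasal cells had Krt1 and Krt10 at 20% or more of Krt14 and Krt5, and the follicle class had 2 or more follicle genes. With 1 library per group no model was fitted.

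Genes were named by rule. The rule took the 8 highest and 8 lowest per comparison at 20 CPM or more, ranked by the interval bound nearest to 1, without mitochondrial, ribosomal, predicted and selection genes. It also took up to 4 genes per list by size of fold, and a set of genes of interest such as Krt15, Ptgs2 and Kitl. Genes given only as those past the limit of a list were named because of their fold, and values in other classes or kinds of cells were chosen after the data had been seen. Positions are from RefSeq (GRCm38.p6), which is the build of mm10. The calculation was tested on simulated data. Python 3.11.15, scipy 1.17.1 and pandas 2.3.3 were used. Alternatives changed the member rule, the gene limits, the scaling, the CPM minimum, the fold limit and the pseudocount. The 3 kinds of cells and 5 further alternatives were added after the data had been seen.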

Additional observations from a re-analysis of the deposited data

How the results depend on the processing

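No paired analysis was possible because each group had 1 library. The directions of Krt15, Ptgs2, Ccl27a and Cxcl14 given above rest on 1 mouse each, and the WT_UV members number 116, of which 1 deep cell carries much of the stress keratin and late differentiation values. The cause of the shifts below was not tested. Over all alternatives, log2 folds of the set of genes of interest kept their value within the counting interval in 1212 cases and moved in 323. In 1 case a fold past the limit changed sign, S100a8 in WT_UV over WT_Ctrl with -0.42 in stress-keratin-low cells. Sign changes of folds within the limit were not counted separately, and the other named genes were not followed over the alternatives.

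The median of the stress keratin list in RP_UV over WT_UV changed sign under 9 alternatives. It was 2.20 with 4000 genes as the upper limit in every library, 0.03 with the rule applied to thinned cells, 4.20 with no follicle gene allowed, 2.72 with no immune UMI and 0.10 without sebaceous-gene cells. It was 2.27 in stress-keratin-low cells, 2.75 without the deepest cell, 4.19 among cells with Col17a1 or Itga6, and 1.04 as a mean over cells. The late differentiation median of that comparison became 1.03, 2.04, 1.18, 0.95, 1.39, 0.96 and 1.52 under these, leaving out the thinned rule and the removal of sebaceous-gene cells. The chemokine list in WT_UV over WT_Ctrl became 0.27 with no follicle gene, 0.02 with no immune UMI and 0.13 without the highest doublet scores, and 0.45 in RP_UV over WT_Ctrl with no follicle gene.

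The share of members was 11.3% in WT_Ctrl and 8.25% in RP_UV with the thinned rule, and 6.89%, 1.51% and 2.42% in WT_Ctrl, WT_UV and RP_UV with no follicle gene. In RP_UV it was 5.11% with no immune UMI, 5.07% without sebaceous-gene cells and 3.44% for stress-keratin-low cells. With at least 2000 UMIs it was 1.84% in WT_UV and 4.81% in RP_UV. Genes higher in RP_UV over WT_UV numbered 496 with the thinned rule, 407 with no follicle gene, 519 without sebaceous-gene cells and 475 in stress-keratin-low cells. Over WT_Ctrl they numbered 477 with no follicle gene and 473 in stress-keratin-low cells. For WT_UV over WT_Ctrl, median-ratio scaling gave 293 higher and 254 lower, and no CPM minimum gave 303 higher. A minimum of 50 CPM gave 79 higher and 71 lower in WT_UV over WT_Ctrl, 300 and 196 in RP_UV over WT_UV, and 305 and 363 in RP_UV over WT_Ctrl. A fold limit of 3 gave 88 and 116, 338 and 211, and 324 and 470.

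The stress keratin median of WT_UV over WT_Ctrl was 4.88 with 4000 genes, 3.86 with no follicle gene, 6.48 with no immune UMI, 2.31 in stress-keratin-low cells, 3.12 with Col17a1 or Itga6, 4.53 as a mean over cells and 3.30 with a pseudocount of 10 CPM. In RP_UV over WT_Ctrl it was 3.79 in stress-keratin-low cells and 3.30 with that pseudocount. Immediate early medians in WT_UV over WT_Ctrl were -0.64 with 4000 genes, -0.58 with the thinned rule, -0.65 with no follicle gene and -0.17 with median-ratio scaling. In RP_UV over WT_Ctrl they were -1.27 with no follicle gene, -1.47 without sebaceous-gene cells and -1.26 in stress-keratin-low cells, where basal state regulators had -0.72 and MHC class I genes -1.32. Median-ratio scaling gave -0.64 for MHC class I in WT_UV over WT_Ctrl.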
